A study of Homo sapiens with 36 samples.

Results

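Day 7 of neuronal induction was set against day 3 in cells labelled WT, with 4 libraries in each group, so that 8 of the study's 36 libraries enter the contrast. They are the samples titled WT at day 7 and WT at day 3, replicates 1 to 4, and were chosen by label alone. All of them came from H9, an established human embryonic stem cell line, in which doxycycline switches on the proneural factor NGN2 (gene NEUROG2). The WT cells carry no RAI1 edit. The labels share 1 batch name, 1 medium (Neurobasal-A with GlutaMAX, B27, GDNF, NT3 and CultureOne) and biological replicate numbers 1 to 4, but they do not say when doxycycline was removed, whether replicates were separate inductions, or how many clones were used. P-values therefore measure the spread between these libraries. The 4 WT libraries of day 0, harvested before induction, gave starting levels. They also entered the filter on low counts, the scaling and the estimate of the spread, but not the contrast itself. Libraries labelled HET and KO for RAI1 at days 3 and 7 were used for the comparison of genotypes at the end.

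Forced expression of NEUROG2 turns pluripotent cells into neurons within days. NEUROG2 is a basic helix-loop-helix factor that binds E-boxes and drives a cascade of further factors (NEUROD1, NEUROD4, NHLH1, MYT1L), while Notch ligands that it induces signal to neighbouring cells. Cells that leave the cycle lose the E2F-driven replication genes and the mitotic genes held down by the DREAM complex, extend neurites built on neurofilaments and microtubules, and then add ion channels, transmitter receptors and the vesicle release machinery.

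Each WT library held 35.9 to 51.34 M counts (M, mega) at days 3 and 7. Total RNA was sequenced after removal of ribosomal RNA, and 5 small structural RNAs took 14.3% ± 5.36 (SD, n = 4) of counts at day 3 and 20.4% ± 5.1 (SD, n = 4) at day 7, a difference within the spread (exact two-sided permutation test, p = 0.171, adjusted over 2 shares 0.342). The mitochondrially encoded share was 0.762% ± 0.0532 at day 3 and 0.927% ± 0.372 at day 7 (SD, n = 4 each; exact permutation p = 0.6, adjusted 0.6). All 11 neuron markers tested rose, all 6 markers of dividing cells fell, and of 8 pluripotency markers 5 fell and 1 rose.

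WT day 7 replicate 1 stood apart. Among the 5182 genes that rose, it was the day 7 library nearest to the day 3 level in 54.4%, where the other day 7 libraries were nearest in 12.3% to 20.2%. Among the 5102 that fell, it was nearest in 41.3%, against 13.4% to 28.8%. Over 3283 genes that changed, its departure from day 3 was 0.775 times the mean departure of the other day 7 libraries, and those 3 lay between 1.05 and 1.07. Every list below was therefore also counted without it, and a count that changed is given beside the list. Values for a gene are CPM, counts scaled to a common library total with TMM factors, always in the order of replicates 1 to 4.

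RAI1, the gene edited in the other genotypes (ENSG00000108557, GRCh38 chr17:17681473-17811453), stood in the WT libraries at 79.4, 65.9, 47.4 and 41.2 CPM at day 3 and at 37.1, 49.5, 48 and 74.5 CPM at day 7. The groups overlapped, and the log2 difference of -0.16 (SE 0.25) was within their spread (edgeR adjusted p = 0.632). Its annotated span overlaps 4 other genes, whose reads could be mixed with its own because the use of strand was not given in the sources used here.

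Of 22268 genes tested with edgeR's quasi-likelihood test at a Benjamini-Hochberg adjusted p under 0.05, 10284 (46.2%) were called. They divided into 5182 that rose (23.3%) and 5102 that fell (22.9%), and the median log2 change of all genes tested was 0.01. In RNA from whole cultures, fewer cells of a type and less RNA per cell cannot be told apart. Without WT day 7 replicate 1, 10812 of 22823 genes were called (47.4%), of which 9622 were called in the same direction in both fits. In a fit of only the 8 contrast libraries, without day 0, 8735 of 20892 genes were called (41.8%). In 8358 genes (37.5%) of the main fit no day 7 library overlapped any day 3 library. The balance of directions depended on scaling: 50.4% of called genes were higher on TMM-scaled counts, 42.9% when scaled by library size alone (median of all genes -0.09), and 26.7% on the deposited TPM (median -0.10 on the log2(TPM + 1) scale), in which the small structural RNAs take most of the total. Of TPM the small structural RNAs took 73% ± 6.23 at day 3 and 81.5% ± 2.97 at day 7 (SD, n = 4 each). The counts of each list are read against the shares of all genes that rose or fell, which the bar chart of calls by list shows as dashed lines.

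**Figure D1:**
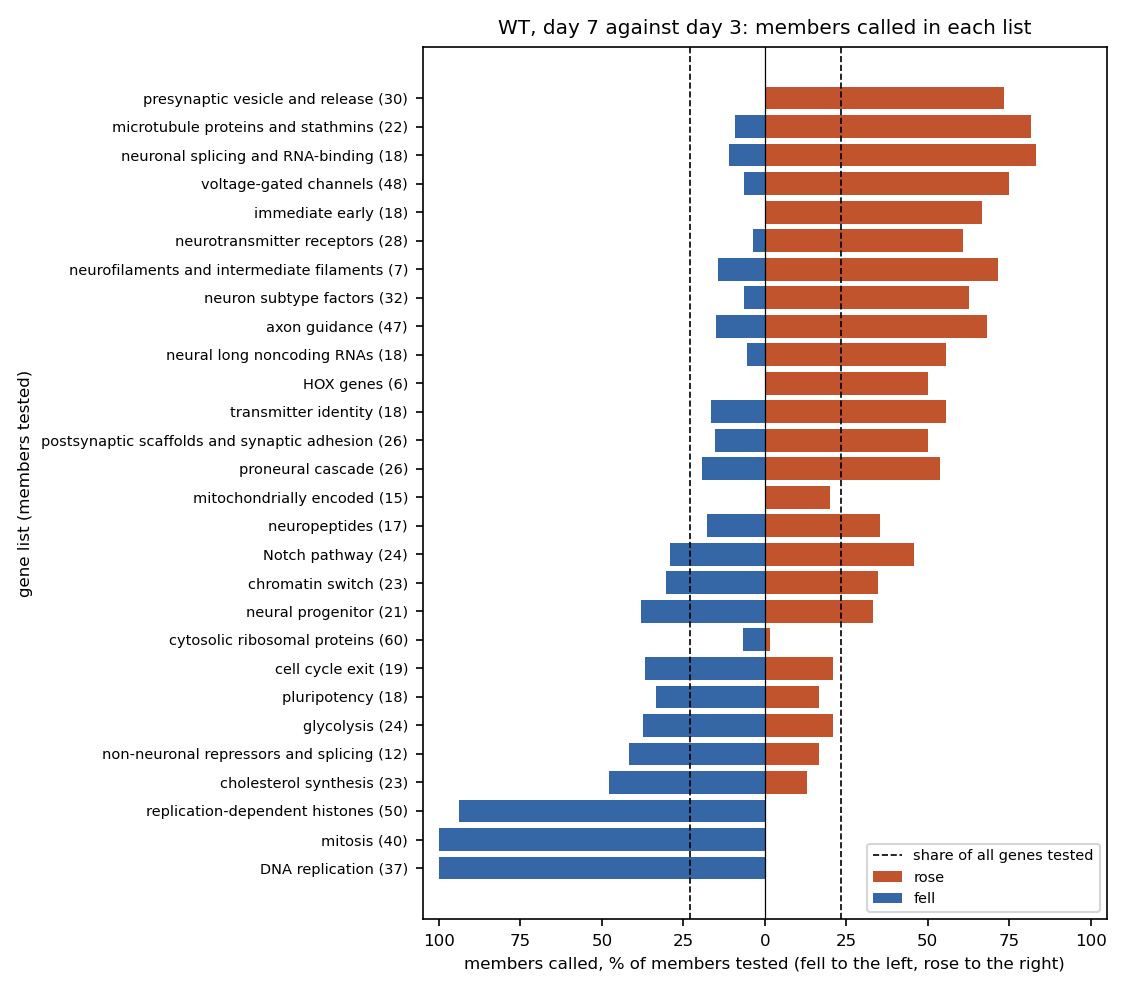
Share of the tested members of 28 gene lists that rose (right) or fell (left) between day 3 and day 7 in WT, in percent, with the number tested in parentheses. Dashed lines mark the shares of all genes tested, 23.3% and 22.9%; all members of the mitosis and DNA replication lists and 47 of 50 histone genes fell, and no presynaptic gene fell.

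NEUROG2 itself (ENSG00000178403, chr4:112513516-112516172) showed the largest fall among the genes named by rule. It stood at 23474, 20131, 20087 and 25262 CPM at day 3 and at 93.1, 47.8, 51.5 and 62.3 CPM at day 7. All day 3 libraries lay far above all day 7 libraries, and the log2 change was -8.45 (SE 0.42, edgeR adjusted p = 5.37e-09), a 349-fold lower level that remained above the day 0 mean of 21.4 CPM. Per length, NEUROG2 ranked first among protein-coding genes at day 3 by median TPM (4289) and had a median of 9.25 TPM at day 7. Reads of the transgene and of the endogenous gene cannot be told apart in a table of gene counts.

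Of 26 tested genes of the proneural cascade 14 rose and 5 fell (NEUROG2, GADD45G, CBFA2T3, HES6 and CBFA2T2), with a median log2 change of 1.43 (15 and 6 without WT day 7 replicate 1). NEUROD1, which acts downstream of NEUROG2, stood at 15.6, 24.7, 27.7 and 20.9 CPM at day 3 and at 556, 371, 442 and 455 CPM at day 7. The groups were far apart, with a log2 change of 4.36 (SE 0.25, edgeR adjusted p = 1.53e-08). NEUROG1, a close relative of NEUROG2, was almost silent at day 3 (0.166, 0.443, 0.652 and 0.389 CPM) and reached 30.7, 43.6, 28 and 65 CPM at day 7, a log2 change of 6.68 (SE 0.44, adjusted p = 4.79e-08). The proneural genes thus moved in different directions: NEUROG2 fell as NEUROG1 and NEUROD1 rose.

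NEUROD4, another early target, overlapped between the days (197, 209, 222 and 272 CPM at day 3, 272, 89.8, 162 and 139.6 CPM at day 7), and its difference of -0.44 did not pass the test (edgeR adjusted p = 0.339). HES6, an antagonist of HES1, fell from 476 to 906 CPM at day 3 to between 119.9 and 238 CPM at day 7 (SE of the log2 change 0.24, adjusted p = 1.26e-05). Later members rose. NHLH1 changed by 1.16, NHLH2 by 4.33 and the zinc finger factors MYT1 and MYT1L, repressors of non-neuronal genes, by 4.03 and 3.96 on the log2 scale. MYT1L was nevertheless at only 0.989 to 8.12 CPM at day 7.

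The Notch pathway, through which a differentiating cell holds back its neighbours, was mixed, with ligands and target genes in both directions. Of 24 members 11 rose and 7 fell (9 and 7 without WT day 7 replicate 1), with a median of 0.21. On the TPM scale the median turned to -0.05, and 5 rose and 7 fell. The ligands DLL1 and DLL3 fell. DLL1 stood at 130.1, 104, 128 and 303 CPM at day 3 and at 2.7, 17.5, 11.1 and 12.8 CPM at day 7, with no overlap (log2 -3.91, SE 0.49, edgeR adjusted p = 1.45e-05). DLL3 fell from 893 to 1378 CPM to between 94.8 and 360.2 CPM (log2 -2.52).

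Another ligand, JAG1, rose from 6, 9.55, 11.6 and 28.8 CPM to 34.4, 123, 135 and 88.7 CPM (log2 2.77, SE 0.47, edgeR adjusted p = 0.000239). The receptor NOTCH1 fell by 1.36 on the log2 scale, with 97.9 to 166 CPM at day 3 and 12.1 to 95.3 CPM at day 7, the lowest being replicate 1. Among target genes of the HES family, HES1 fell (log2 -2.87) from levels that day 3 replicate 4, at 13.8 CPM, set apart from the others at 1.6 to 3.6 CPM. HES5 and HES2 rose, to at most 0.77 CPM and 8.12 CPM, and HES4 overlapped between the days at 33.4 to 60 CPM and 30 to 85.1 CPM (log2 0.32, edgeR adjusted p = 0.438).

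**Figure D2:**
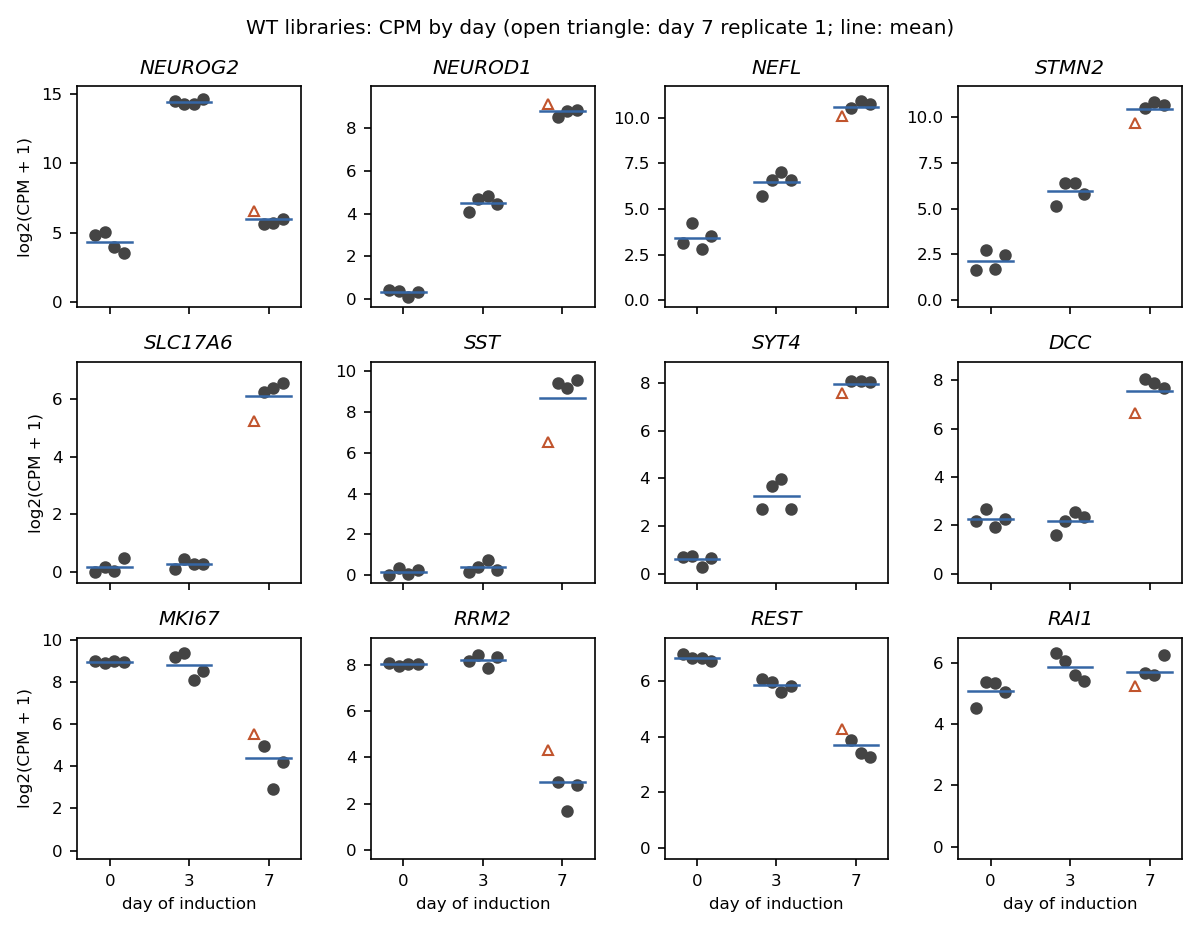
log2(CPM + 1) of 12 genes in the WT libraries of days 0, 3 and 7; each point is a library, the blue line is the mean of 4 libraries and the open triangle is day 7 replicate 1. NEUROG2 peaked at day 3, NEUROD1, NEFL, STMN2, SLC17A6, SST, SYT4 and DCC were highest at day 7, MKI67, RRM2 and REST were lowest at day 7, and RAI1 overlapped between days 3 and 7.

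The cytoskeleton of the neurite was among the most strongly raised groups. Of 7 intermediate filament genes 5 rose and NES, a progenitor filament, fell, with a median of 3.13. NEFL, the light neurofilament subunit, stood at 51.2, 93.8, 129.7 and 94.7 CPM at day 3 and at 1077, 1489, 1958 and 1700.2 CPM at day 7. All day 7 libraries exceeded all day 3 libraries (log2 4.07, SE 0.36, edgeR adjusted p = 5.77e-07). NEFM (log2 4.91), PRPH, the peripherin of peripheral and some central neurons (4.13), and INA (3.13) rose with it. NES fell by 1.36, and VIM, a filament of progenitors and mesenchyme, overlapped between the days (log2 -0.06, adjusted p = 0.868).

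Of 22 microtubule proteins and stathmins 18 rose and 2 fell (TUBA4A and STMN1), with a median of 2.63 (19 and 1 without WT day 7 replicate 1). STMN2, a regulator of axonal microtubules, stood at 33.8, 85.2, 84.1 and 55 CPM at day 3 and at 833, 1458, 1839 and 1599.9 CPM at day 7. Replicate 1 was the lowest at day 7 but far above day 3 (log2 4.47, SE 0.39, edgeR adjusted p = 5.75e-07). STMN4 rose by 5.33, GAP43, a growth cone protein, by 4.33, and the axonal protein tau (MAPT) by 4.21. The neuronal tubulin TUBB3 was already at 852 to 1006 CPM at day 3 and rose by 2.03 to between 2377 and 5139.7 CPM. By median TPM, a scale per length, TUBA1A ranked 124 among protein-coding genes at day 3 and 2 at day 7, and TUBB3 ranked 145 and 12. The fall of STMN1 was small (-0.43, adjusted p = 0.0492), and its groups overlapped, as did those of TUBA4A (-0.92, adjusted p = 0.0201).

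Genes of vesicle release rose without exception among those called. Of 30 members 22 rose and none fell (25 and none without WT day 7 replicate 1), with a median of 1.59, and 21 rose on the TPM scale. SYT4, a vesicle protein of the synaptotagmin family, stood at 5.51, 11.7, 14.5 and 5.5 CPM at day 3 and at 192, 272, 272 and 265 CPM at day 7. The groups were far apart, and replicate 1 lay under the other day 7 libraries (log2 4.75, SE 0.35, edgeR adjusted p = 1.09e-07). RIMS1, an active zone scaffold, rose by 3.60 and SV2B, a vesicle glycoprotein, by 3.51. The core components changed less. SNAP25, a membrane SNARE, rose by 1.68, the calcium sensor SYT1 by 1.66, SYN1 by 1.81 and SYP, which stood at 126 to 192 CPM at day 3 already, by 0.64.

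The postsynaptic and adhesion list was mixed. Of 26 members 13 rose and 4 fell (DLGAP2, CAMK2B, HOMER1 and DLG3), with a median of 0.60 (14 and 4 without WT day 7 replicate 1). On the TPM scale 6 rose and 3 fell, with a median of 0.04. CAMK2B, a kinase subunit of the synapse, fell from 52.2, 49.8, 75 and 76 CPM to 10.3, 12.5, 17.3 and 23 CPM (log2 -2.01, SE 0.24, adjusted p = 1.09e-05). The main scaffold DLG4 (PSD-95) was at 192 to 375 CPM at day 3 and 231 to 351 CPM at day 7, which overlap (log2 -0.00, SE 0.19, adjusted p = 0.991).

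Of 28 transmitter receptor genes 17 rose and GRIK4 fell, with a median of 1.13 (9 rose and 1 fell on the TPM scale, median 0.12). GRIA2, the AMPA receptor subunit that limits calcium entry, stood at 0.425, 0.643, 1.26 and 3.01 CPM at day 3 and at 39.9, 60.5, 43.6 and 31.6 CPM at day 7. The groups did not overlap (log2 5.07, SE 0.54, edgeR adjusted p = 3.23e-06). The NMDA receptor subunit GRIN2D rose from 17.7 to 24 CPM to between 203 and 262 CPM, with replicate 1 inside the range of the others (log2 3.46, SE 0.20, adjusted p = 1.28e-08). The kainate receptor gene GRIK3 rose by 3.89. The nicotinic receptor gene CHRNA3 overlapped between the days (log2 0.31, adjusted p = 0.467).

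Of 48 voltage-gated channel genes 36 rose and 3 fell, among them CACNA1G and KCNA4, with a median of 1.54 (38 and 2 without WT day 7 replicate 1), and 21 rose on the TPM scale. Potassium channels led. KCNH7, of the ERG family, stood at 2.42, 3.17, 2.92 and 1.77 CPM at day 3 and at 76.7, 53, 56.3 and 53 CPM at day 7. Replicate 1 was the highest here (log2 4.54, SE 0.31, edgeR adjusted p = 6.21e-08). KCNC2, of the fast Kv3 family, rose by 6.08 to between 3.33 and 18.2 CPM. Sodium channel genes rose to different levels. SCN3A, the form of immature neurons, reached 5.34, 33.7, 24.6 and 31.6 CPM, while SCN2A reached no more than 2.38 CPM and SCN9A 1.38 to 13.4 CPM. The N-type calcium channel gene CACNA1B rose by 1.62.

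Transmitter identity was glutamatergic by its vesicular transporters. SLC17A7, which encodes VGLUT1, was not called between the days. By median TPM it ranked 1447 among protein-coding genes at day 3 and 991 at day 7, against 15290 and 3533 for SLC17A6. SLC17A6, which encodes VGLUT2 (ENSG00000091664, chr11:22338097-22379503), stood at 0.0739, 0.377, 0.193 and 0.208 CPM at day 3 and at 36.8, 74.9, 83.7 and 94.5 CPM at day 7. Replicate 1 was lowest at day 7 (log2 8.42, SE 0.56, edgeR adjusted p = 5e-08). GAD1, for GABA synthesis, stayed at or under 1.76 CPM in every library of both days (log2 0.50, adjusted p = 0.577). TH, for catecholamine synthesis, was called (log2 5.50, adjusted p = 0.000486) from 3 day 3 libraries without a count to at most 2.26 CPM. CHAT, for acetylcholine synthesis, moved by 0.72 (adjusted p = 0.0175) to between 9.49 and 14.6 CPM, and was not called when day 3 replicate 1, day 3 replicate 2 or day 7 replicate 3 was left out (0.62 to 0.66, adjusted p 0.0514 to 0.0623). SLC6A3, the dopamine transporter, rose by 1.35 and ACHE by 1.65. Of 18 members of the list 10 rose and 3 fell, among them SLC18A2 and TPH1, with a median of 1.47 (0.16 on the TPM scale). The counts were 11 and 2 without WT day 7 replicate 1.

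The largest rise among the genes named by rule was that of the neuropeptide SST, somatostatin (ENSG00000157005, chr3:187668906-187670399). It stood at 0.111, 0.31, 0.676 and 0.182 CPM at day 3 and at 92.7, 686, 577 and 766 CPM at day 7. Replicate 1 was far below every other day 7 library and still far above day 3 (log2 10.72, SE 0.80, edgeR adjusted p = 1.31e-07, and 11.07 without it). By median TPM SST ranked 12244 among protein-coding genes at day 3 and 35 at day 7. ADCYAP1, the precursor of PACAP, rose by 7.11 to between 1.95 and 9.24 CPM, and CHGA, a granule protein, by 1.14. SCG2 (log2 0.20, adjusted p = 0.655) and GAL (1.15, adjusted p = 0.287) overlapped. Of 17 tested neuropeptide and granule genes 6 rose and 3 fell (NXPH2, NMU and TAC3), with a median of 0.63 (0.02 on the TPM scale), so that the change of SST was not shared by most of the list. Without WT day 7 replicate 1, 8 rose and 3 fell.

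Other genes with the largest rises were also low at day 3. SYNPR, a vesicle membrane protein, had 2 counts in all 4 day 3 libraries and reached 1.62, 24.7, 14.7 and 20.3 CPM, a ratio of summed levels of 1450.2 (95% counting interval 401 to 11982). CNTNAP4, a cell adhesion protein of synapses, had 1 count at day 3 and reached 0.3, 7.69, 7.11 and 6.16 CPM (ratio 988, interval 177 to 39068), with replicate 1 far below the others. The matrix protein TNC rose by 8.84 on the log2 scale, the protease PAPPA by 7.74, the membrane mucin PARM1 by 7.60 and the apelin receptor APLNR by 7.60. TNC, PAPPA and APLNR were also present at day 0 (means of 56.4, 20.6 and 7.66 CPM) and were lowest at day 3.

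Genes that steer axons, a list of receptors, ligands and adhesion molecules, mostly rose. Of 47 axon guidance genes 32 rose and 7 fell (NTN1, PLXNA1, UNC5B, SEMA3E, EPHB3, NEO1 and PLXNA2), with a median of 2.06. The netrin receptor DCC stood at 2, 3.55, 4.83 and 4.1 CPM at day 3 and at 98.3, 262, 236 and 203 CPM at day 7. Its groups were far apart, with replicate 1 lowest at day 7 (log2 5.79, SE 0.36, edgeR adjusted p = 2.68e-08). The Slit receptor ROBO2 rose by 5.77 and SLIT1, a ligand, by 4.93, from 3.36 to 4.72 CPM at day 3 to 11.1 CPM in replicate 1 and 117 to 181 CPM in the other day 7 libraries.

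CNTN2, an adhesion molecule of early axons, rose from 41.4, 75.6, 78.2 and 38.7 CPM to 888, 4218, 3246 and 3630.1 CPM (log2 5.68, SE 0.46, edgeR adjusted p = 2.53e-07). By median TPM it ranked 7105 at day 3 and 137 at day 7. SEMA6D rose by 4.26. EPHB2, an ephrin receptor, overlapped (log2 -0.46, adjusted p = 0.249), with day 7 replicate 4 at 145 CPM and the others at 47 to 73.2 CPM. Without that library it was called lower (-0.92, adjusted p = 0.00787).

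Factors that set neuron subtype rose in several unrelated classes. Of 32 members 20 rose and 2 fell (GATA2 and CUX1), with a median of 1.57. LHX9, a LIM homeodomain factor, stood at 0.0554, 0.177, 0.338 and 0 CPM at day 3 and at 70.2, 70.3, 82.6 and 122 CPM at day 7. The rise was similar in all day 7 libraries, replicate 1 included (log2 9.23, SE 0.55, edgeR adjusted p = 1.86e-08). ONECUT3 rose by 7.56 and ONECUT1 by 2.90. ONECUT3 was at 5.04 CPM in replicate 1 and at 32.2 to 60.5 CPM in the other day 7 libraries.

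The sensory and retinal factors POU4F1 and POU4F2 rose by 3.50 and 7.15, with POU4F1 at 23.9 to 44.8 CPM and POU4F2 at 1.62 to 10 CPM. ISL1, of motor and sensory neurons, rose by 2.96, and POU3F2 (BRN2) by 1.65. Of 28 HOX genes, which mark position along the body axis, 6 passed the filter on low counts and 3 rose (HOXD8, HOXB7 and HOXB3), to at most 6.25 CPM. All 3 calls were lost in the edgeR fit of all 36 libraries, while limma on the TPM scale called 3 of the 6 higher. HOXB2, at 6.44 to 13 CPM at day 3 and 6 to 18 CPM at day 7, and HOXA2 overlapped between the days.

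The RNA-binding proteins of neurons changed toward higher levels. Of 18 members 15 rose and 2 fell (RBFOX1 and PTBP2), with a median of 1.38. ELAVL4 (HuD), which stabilises neuronal mRNAs, stood at 3.58, 9.24, 21.3 and 11.7 CPM at day 3 and at 34.4, 68, 85.3 and 76.7 CPM at day 7. The groups did not overlap (log2 2.53, SE 0.51, edgeR adjusted p = 0.000878). CELF6 rose by 3.72, CELF4 by 2.87, NOVA1 by 1.46, and RBFOX3, which encodes the marker NeuN, rose with an adjusted p of 0.00282. RBFOX3 was at 15.3 CPM in day 7 replicate 1, inside the day 3 range, and at 43.5 to 55.1 CPM in the others.

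In a list of 12 repressors, splicing regulators and LIN28 genes, 5 fell (ID1, LIN28A, REST, ID3 and PTBP1) and 2 rose (ID2 and ID4). REST, the silencer of neuronal genes (chr4:56907876-56966678), stood at 67.6, 62.1, 48 and 55.5 CPM at day 3 and at 18.7, 13.7, 9.77 and 8.72 CPM at day 7. It had been at a mean of 114 CPM at day 0 (log2 -2.20 from day 3, SE 0.21, edgeR adjusted p = 1.26e-06). The splicing repressor PTBP1 fell by 0.88. LIN28A fell by 2.69 and its paralog LIN28B overlapped between the days (log2 0.06, adjusted p = 0.81).

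In the list of chromatin factors that differ between progenitors and neurons, 8 of 23 rose and 7 fell. The median of -0.04 became 0.10 without WT day 7 replicate 1, -0.15 by library size alone and 0.18 with the small RNA share as a covariate, so the list as a whole had no stable direction. On both TPM scales limma called 1 higher and 7 lower. Some subunits of the BAF complex differ between progenitors and neurons. ACTL6A, of the progenitor complex, fell by 0.46 (edgeR adjusted p = 0.0121) and ACTL6B, its neuronal counterpart, rose by 1.28 (adjusted p = 0.00135). Of further neuronal subunits, DPF3 rose by 3.64 and SS18L1 also rose, while DPF1 fell by 1.17 (adjusted p = 0.00116). PHF10, of the progenitor complex, fell as well, and SS18 and DPF2 of that complex were not called. The maintenance methylation genes DNMT1 and UHRF1 fell by 1.61 and 3.98 on the log2 scale, and EZH2 of the Polycomb complex fell by 0.77. DNMT3B, high at day 0 with a mean of 542 CPM, was at 29.3 to 43.3 CPM at day 3 and overlapped that range at day 7 (-0.12, adjusted p = 0.70).

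Progenitor genes divided. Of 21 members 8 fell and 7 rose, with a median of -0.40 (10 and 7 without WT day 7 replicate 1, 7 and 4 on the TPM scale). SOX2 stood at 20, 26.9, 32.6 and 45 CPM at day 3 and at 20.5, 10.2, 11.2 and 11.2 CPM at day 7. Replicate 1 lay in the day 3 range and the other 3 libraries below it (log2 -1.23, SE 0.25, edgeR adjusted p = 0.00103, and -1.52 without replicate 1). PROM1 fell by 4.19. PAX6, a regulator of progenitors and of some neurons, rose from 1.74 to 3.19 CPM to between 14.1 and 26.3 CPM (log2 3.17). FABP7 and ZIC2 overlapped between the days (0.67 and 0.15, adjusted p = 0.327 and 0.532), but were called higher without day 3 replicate 4 (FABP7, edgeR adjusted p = 0.0159) and without day 3 replicate 2 (ZIC2, 0.37).

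Pluripotency genes had mostly been lost before day 3, and 6 of 18 fell further while 3 rose (7 and 3 without WT day 7 replicate 1). By limma on the TPM scale 2 were lower and none higher. POU5F1 (OCT4) had a mean of 351 CPM at day 0, stood at 2.49, 2.81, 5.36 and 30.5 CPM at day 3 and at 0.06, 0.167, 0.0875 and 0.14 CPM at day 7 (log2 -6.41, SE 0.92, edgeR adjusted p = 5.14e-05). Day 3 replicate 4 was far above the other day 3 libraries. L1TD1 fell by 2.57 at levels under 1 CPM, and PODXL, at a mean of 1329.6 CPM at day 0, rose by 1.33 to between 10.3 and 13.6 CPM.

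Genes of the cell cycle fell together. All 37 DNA replication genes fell, with a median log2 change of -2.66 (-2.75 without WT day 7 replicate 1), and all 40 mitosis genes fell, with a median of -3.59 (-4.31 without it). In all members of both lists every day 7 library lay below every day 3 library, as in 18.9% of all genes tested. The summed level of the mitosis list was 6073, 7086, 3860.3 and 4958 CPM at day 3 and 886, 438, 239 and 325 CPM at day 7, so that replicate 1 held more than any other day 7 library, and it was the highest of the 4 for each of the 40 genes.

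**Figure D3:**
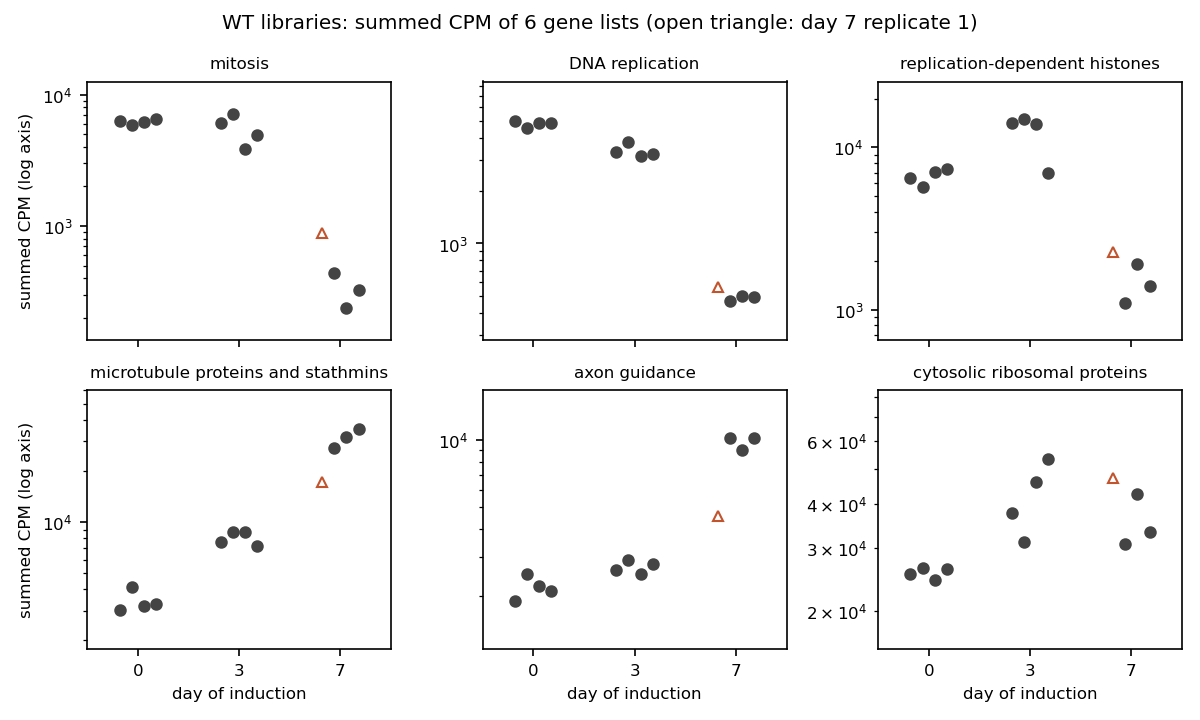
Summed CPM (log axis) of 6 gene lists in the WT libraries of days 0, 3 and 7; each point is a library and the open triangle is day 7 replicate 1. The mitosis, DNA replication and histone sums at day 7 all lie below day 3, the microtubule and axon guidance sums lie above it with replicate 1 lowest, and the ribosomal protein sums of the 2 days overlap.

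Among the mitosis genes MKI67, the source of the Ki-67 antigen (ENSG00000148773, chr10:128096659-128126385), stood at 574, 664, 272 and 369 CPM at day 3 and at 45.6, 30.3, 6.47 and 17.4 CPM at day 7. The groups did not overlap, with replicate 1 highest at day 7 (log2 -4.24, SE 0.47, edgeR adjusted p = 5.5e-06). The mitotic kinase CDK1 was at 168, 222, 229.8 and 281 CPM and then at 28, 7.07, 3.18 and 2.85 CPM, so that replicate 1 stood well above the other 3 (log2 -4.46, and -5.68 without it). TOP2A fell by 4.17, the kinase AURKB by 4.56 and the cyclin CCNB1 by 3.36.

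Among the replication genes RRM2, a subunit of ribonucleotide reductase, fell from 288, 347, 229 and 324 CPM to 19.1, 6.62, 2.16 and 5.97 CPM (log2 -5.14, SE 0.49, edgeR adjusted p = 1.19e-06). The clamp PCNA fell by 3.30 and the helicase subunit MCM2 by 2.99, with replicate 1 inside the range of the other day 7 libraries for MCM2. The S phase factors CDC45 and TK1 fell by 5.84 and 5.70, and E2F1, the transcription factor of this group, by 3.61.

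The promoters of these lists show which known cell cycle elements their members carry. The windows ran from 250 bases before to 50 bases after the annotated start (RefSeq, GRCh38.p14), and both strands were searched. The cell cycle homology element TTTGAA was present in 24 of 34 mitosis promoters (70.6%), 1 of 33 replication promoters (3.03%) and 15.4% of all 27305 promoters. The CCAAT box was present in 70.6% of mitosis, 57.6% of replication and 35.7% of all promoters. The E2F forms TTTGGCGC and TTTCCCGC were present in 21.2% and 30.3% of replication promoters, and in 0.659% and 1.66% of all. Presence of these letters is a description and not evidence of binding. The 150 bases upstream of the start are printed below for 3 mitosis genes and 3 replication genes with the largest falls among those holding their list's motifs there, chosen after values and motifs had been seen. Capitals mark CCAAT and TTTGAA, on either strand, in the mitosis genes and the E2F forms in the replication genes; TTTGAA and ATTGG overlap in MKI67.
DLGAP5, chr14:55191586-55191735, minus strand: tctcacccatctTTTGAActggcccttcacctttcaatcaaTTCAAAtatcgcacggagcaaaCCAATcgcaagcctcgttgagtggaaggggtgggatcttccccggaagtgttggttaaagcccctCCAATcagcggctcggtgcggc
CENPA, chr2:26785906-26786055, plus strand: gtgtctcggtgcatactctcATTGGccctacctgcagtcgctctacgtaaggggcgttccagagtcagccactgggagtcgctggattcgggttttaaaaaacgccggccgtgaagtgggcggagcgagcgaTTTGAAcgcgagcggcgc
MKI67, chr10:128126424-128126573, minus strand: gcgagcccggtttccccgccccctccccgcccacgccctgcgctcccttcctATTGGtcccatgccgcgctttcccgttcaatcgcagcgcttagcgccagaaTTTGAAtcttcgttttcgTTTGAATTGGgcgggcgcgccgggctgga
E2F2, chr1:23531234-23531383, minus strand: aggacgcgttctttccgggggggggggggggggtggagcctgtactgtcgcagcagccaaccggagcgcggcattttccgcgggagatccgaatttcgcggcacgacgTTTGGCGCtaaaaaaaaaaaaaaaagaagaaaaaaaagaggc
CDT1, chr16:88803639-88803788, plus strand: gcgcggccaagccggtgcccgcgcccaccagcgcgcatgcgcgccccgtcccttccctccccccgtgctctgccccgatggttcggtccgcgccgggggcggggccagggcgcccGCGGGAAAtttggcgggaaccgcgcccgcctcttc
TYMS, chr18:657503-657652, plus strand: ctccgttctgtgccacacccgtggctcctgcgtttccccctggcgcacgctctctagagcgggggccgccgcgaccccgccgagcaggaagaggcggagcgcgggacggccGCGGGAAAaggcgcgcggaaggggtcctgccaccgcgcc

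Read against these sequences, DLGAP5, a spindle protein, fell from 91.4 to 166 CPM at day 3 to between 0.875 and 15.8 CPM at day 7 (log2 -4.31). The centromeric histone gene CENPA fell by 4.26, to 3.48 CPM in replicate 1 and 0.262 to 1.26 CPM in the others. E2F2, itself an E2F factor, fell by 5.47, with 1.77 CPM in replicate 1 and 0.31 to 0.408 CPM in the other day 7 libraries. The licensing factor CDT1 fell by 4.57 and TYMS, thymidylate synthase, by 4.40.

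Replication-dependent histone genes encode the histones made in S phase, from mRNAs that end in a stem-loop in place of a poly(A) tail. Of 50 tested 47 fell and none rose, with a median of -2.64. Their summed level was 14089, 14906, 13926 and 6964 CPM at day 3 and 2275, 1106, 1913 and 1393 CPM at day 7. The day 3 sums lay above all day 7 sums, with day 3 replicate 4 lowest. Reads of such closely similar genes could be assigned to the wrong copy. H3C8 fell from 502, 487, 853 and 423 CPM to 31, 6.79, 2.83 and 8.14 CPM (log2 -5.54, SE 0.60, edgeR adjusted p = 3.7e-06), H1-5 by 4.64 and H4C3 by 2.17.

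Among histone promoters TTTGAA was present in 17 of 47 (36.2%), and the octamer ATTTGCAT was present in 21 of 47 (44.7%) against 1.80% of all promoters, TATAAA in 66.0% against 6.23% of promoters of tested protein-coding genes, and CCAAT in 87.2% against 35.7%. Capitals in the 3 promoters below, chosen after their values and motifs had been seen, mark the octamer and TATAAA on either strand.
H2BC11, chr6:27132796-27132945, minus strand: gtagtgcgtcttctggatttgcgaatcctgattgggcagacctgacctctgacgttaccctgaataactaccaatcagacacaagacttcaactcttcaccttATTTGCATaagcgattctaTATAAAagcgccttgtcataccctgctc
H2AC4, chr6:26033619-26033768, minus strand: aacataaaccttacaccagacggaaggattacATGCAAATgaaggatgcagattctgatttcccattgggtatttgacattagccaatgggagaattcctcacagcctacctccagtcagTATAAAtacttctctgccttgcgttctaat
H2BC8, chr6:26216689-26216838, minus strand: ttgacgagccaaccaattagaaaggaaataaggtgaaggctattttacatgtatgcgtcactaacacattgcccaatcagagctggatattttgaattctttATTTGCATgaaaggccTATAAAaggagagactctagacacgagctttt

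H2BC11 fell from 591, 467, 533 and 415 CPM to 28.2, 9.31, 15.4 and 14.3 CPM (log2 -4.90, SE 0.31, edgeR adjusted p = 2.87e-08). H2AC4 fell by 3.91 and H2BC8 by 2.96. In all 3 the day 7 libraries lay below the day 3 libraries, with replicate 1 highest at day 7.

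Regulators of cell cycle exit did not move together: of 19 tested 4 rose and 7 fell (3 and 7 without WT day 7 replicate 1). The inhibitor CDKN1C (p57) stood at 39.5, 32.2, 45.9 and 69.3 CPM at day 3 and at 111, 251, 369 and 353 CPM at day 7, with no overlap (log2 2.54, SE 0.36, edgeR adjusted p = 4.58e-05). CDKN1A (p21) overlapped (-0.60, adjusted p = 0.243). CDKN2C (p18) fell by 2.26 and the cyclin CCND2 by 1.95. CCND1 was not called (-1.19, adjusted p = 0.0713), with 11.1 CPM in day 7 replicate 4 and 0.72 to 5.29 CPM in the others, and was called without that library (-1.81) or without day 3 replicate 1 (-1.49).

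Metabolic lists moved less. Of 24 glycolysis genes 9 fell and 5 rose, with a median of -0.30. The glucose transporter SLC2A1 fell from 38.1, 29.6, 29.5 and 24.7 CPM to 6.54, 9.29, 8.69 and 9.98 CPM (log2 -1.82, SE 0.18, edgeR adjusted p = 1.99e-06), LDHA by 0.89 and HK2 by 0.62. ENO2, the neuronal enolase, rose from 6.84 to 56.4 CPM to between 169 and 456 CPM (log2 3.39). ALDOC overlapped (0.15, adjusted p = 0.677).

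Of 23 cholesterol synthesis and uptake genes 11 fell and 3 rose, with a median of -0.39 (10 and 3 without WT day 7 replicate 1). By limma on the TPM scale 11 were lower and none higher. HMGCS1, an early enzyme of the pathway, rose by 0.67, and SQLE, the squalene epoxidase, fell by 0.42 (edgeR adjusted p = 0.021, but 0.0681 without day 7 replicate 2).

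Ribosomal protein genes depended on the settings. Of 60 tested 4 fell and 1 rose, with a median of -0.12. Without WT day 7 replicate 1, 12 fell, by library size alone 11, on the TPM scale 29 and with the small RNA share as a covariate 36. RPS6 was called lower at -0.38 (edgeR adjusted p = 0.0179, but 0.0556 without day 3 replicate 4) and RPL3 overlapped (-0.05, adjusted p = 0.848). Of 15 mitochondrially encoded genes 3 rose, with a median of 0.31 that turned to -0.11 on the TPM scale. MT-CO1 was called at 0.59 (adjusted p = 0.0348), but not in 6 of 8 fits that left out a library (0.39 to 0.60, adjusted p 0.0541 to 0.136). MT-ND4 was not called (0.35, adjusted p = 0.241).

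Of 18 immediate early genes, which neuronal activity and stress induce, 12 rose and none fell, with a median of 1.17 (6 and none on the TPM scale). JUN stood at 23.6, 16.7, 21.9 and 46.2 CPM at day 3 and at 97.7, 91.3, 139 and 143 CPM at day 7, with no overlap (log2 2.12, SE 0.45, edgeR adjusted p = 0.00141). FOS and EGR1 rose by 3.24 and 2.93 but stayed under 4 CPM, and NPAS4, the factor most selective for neuronal activity, was at or under 0.12 CPM in all 8 libraries (log2 0.01, adjusted p = 1).

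Of 18 tested neural long noncoding RNAs 10 rose and SOX2-OT fell (9 and 1 without WT day 7 replicate 1). MALAT1 rose from 1133 to 1813 CPM to between 1684 and 3494 CPM (log2 0.85, edgeR adjusted p = 0.00339). RMST rose by 2.28 on the log2 scale, to 14.5 CPM in day 7 replicate 1 and 77.8 to 88.3 CPM in the others. MIAT was called at 0.99 (adjusted p = 0.0228), with 3 of 8 left-out libraries ending the call (0.74 to 0.88, adjusted p 0.0633 to 0.0745). CRNDE overlapped (0.01, adjusted p = 0.965).

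Markers of other cell types were low or mixed. The summed CPM of the glial list was 276 to 446 at day 3 and 159 to 388 at day 7, and 4 of 11 tested members rose while 3 fell. OLIG1 and OLIG2, factors of oligodendrocyte and motor neuron progenitors, rose by 5.30 and 4.06 on the log2 scale, the latter to between 80.9 and 191 CPM. GFAP, the astrocyte filament, stayed at or under 1.09 CPM and was not called (edgeR adjusted p = 0.0988), although it was called lower without day 3 replicate 1 (-1.48). SOX10 stayed at or under 1.5 CPM. AQP4, S100B and MOG did not pass the filter on low counts.

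The mesendoderm sum was 4.45 to 7.94 CPM at day 3 and 54.4 to 99.7 CPM at day 7. Its rise rested on the chemokine receptor CXCR4, also a receptor of migrating neurons, which stood at 2.46, 3.15, 3.02 and 3.48 CPM at day 3 and at 74.5, 80.7, 52.1 and 98.4 CPM at day 7 (log2 4.66, SE 0.34, edgeR adjusted p = 1.08e-07). The other 5 tested members were not called. Fibroblast and mesenchyme markers summed to 380.0 to 809 CPM at day 3 and 102 to 159 CPM at day 7, with 8 of 12 falling and 2 rising. COL1A1 fell from 220.3, 257, 182 and 456 CPM to 28.1, 22.8, 19.1 and 19.8 CPM (log2 -3.63). The neural crest sum was 208 to 344 CPM at day 3 and 94.1 to 195 CPM at day 7, most of it NGFR, which fell by 1.29, while 4 of 9 members rose (3 without WT day 7 replicate 1). Epithelial markers summed to 18.5 to 31 CPM and endothelial and blood markers to 11 to 16.1 CPM at day 7. The part of other cells in the neuronal changes was not tested.

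The remaining genes with the largest falls mostly stood well above their day 0 level at day 3. They included ATOH8, a basic helix-loop-helix factor, at 179, 138, 165 and 204 CPM at day 3 and 0.869 to 2.38 CPM at day 7 (log2 -6.75, SE 0.37, edgeR adjusted p = 1.04e-08), with a day 0 mean of 8.53 CPM. The caveolin CAV3 fell by 6.70, the surface proteins CD52 and TNFRSF18 by 6.61 and 6.04, and the GTPase-activating protein ARHGAP9 by 6.03. PGA4 and PGA3, pepsinogens whose near-identical sequences leave the split of reads between them uncertain, fell by 6.92 and 6.30. KLF15 fell by 6.79 and was the exception, with a day 0 mean of 4.7 CPM close to its 4.1 to 12 CPM at day 3.

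The annotated span of a gene went with its direction. Of 739 tested protein-coding genes spanning over 300 kb, 49.8% rose and 18.1% fell, with a median log2 change of 0.62. In the 3 classes under 100 kb 23.4% to 23.8% rose and 27.4% to 30.2% fell. With all list members left out, 46.9% of 661 such long genes rose. Without WT day 7 replicate 1, 53.5% of the 739 rose. On the TPM scale their median was 0.05, so the size of the shift depends on the scale, although it lay above the TPM medians of -0.18 to -0.23 in the classes under 100 kb. Reads within introns, which counts per gene from total RNA may or may not include, were not examined.

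**Figure D4:**
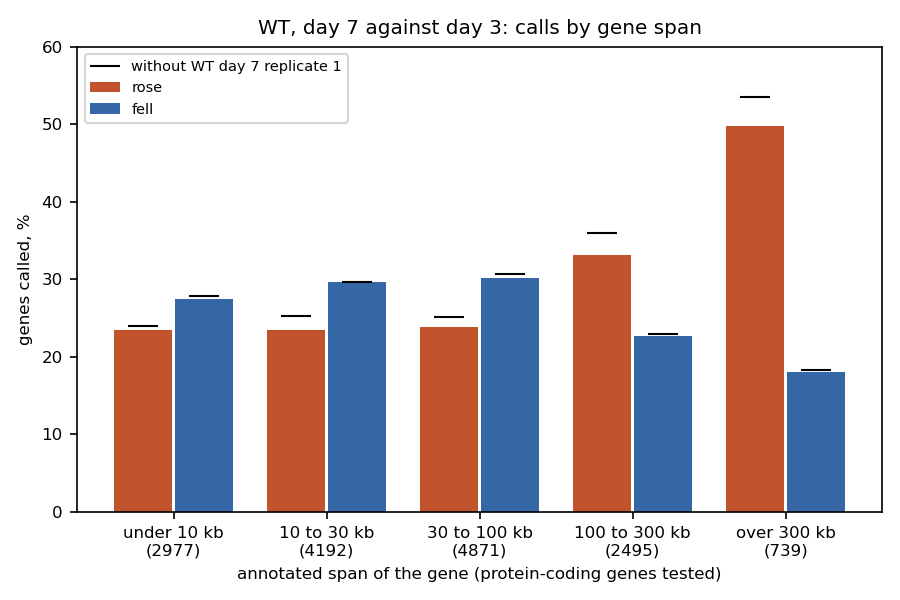
Percent of tested protein-coding genes that rose or fell between day 3 and day 7 in WT, by annotated span, with the number tested in parentheses; black ticks give the values without WT day 7 replicate 1. The share that rose is 23.4% to 23.8% under 100 kb, 33.2% from 100 to 300 kb and 49.8% above.

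The same change was then compared between genotype labels in 1 fit of all 36 libraries, as the difference of 2 differences. RAI1 counts do not check the genotype labels here, so libraries are named by label. The change from day 3 to day 7 differed between KO and WT in 4588 of 24764 genes (18.5%; 1881 more positive in KO, 7.60%, and 2707 more negative, 10.9%) and between HET and WT in 1174 (4.74%; 2.06% more positive in HET and 2.69% more negative). The count for HET ranged from 729 without HET day 7 replicate 3 to 2353 without HET day 7 replicate 1, and was 389 in a fit of only the 16 libraries compared. WT libraries enter both comparisons. Without WT day 7 replicate 1 the counts were 4353 and 958.

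The clearest difference lay in the proneural cascade, whose members rose less or fell more in KO in 19 of 26 genes and in the opposite way in none (17 and none without WT day 7 replicate 1). The list had a median change of 1.43 with the WT label, -0.10 with HET and -0.76 with KO. NEUROD1 changed by 4.36 in WT, by 0.75 in HET and by -2.85 in KO, an interaction of -7.21 (SE 0.71, edgeR adjusted p = 1.15e-08) for KO and -3.61 (SE 0.66, adjusted p = 0.000997) for HET. The interaction for KO was -5.79 for NEUROG1, -3.88 for NEUROD4 and -3.81 for NHLH1. Such interactions do not tell a different level at day 3 from a different level at day 7. KO and HET levels of single proneural genes are not given here, so a failure to induce them cannot be read from these values. NEUROG2 fell alike in size, by 8.45 in WT, 7.84 in HET and 8.51 in KO on the log2 scale, and its interactions did not pass the test (-0.06, SE 0.38, adjusted p = 0.948 for KO; 0.61, SE 0.38, adjusted p = 0.447 for HET).

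Of 24 Notch genes 15 were more negative and 2 more positive in KO, and of 22 microtubule genes 10 and 1. The microtubule sum was nevertheless higher in KO at both days, at 20350.5 to 29449 CPM at day 3 and 40424 to 50613 CPM at day 7, against 7214 to 8743 and 17155 to 35405 CPM in WT. DCC rose by 5.79 in WT, 3.50 in HET and 1.37 in KO (KO interaction -4.42, SE 0.52, edgeR adjusted p = 2.64e-07). GRIN2D changed by 3.46 in WT, 1.77 in HET and -0.22 in KO (KO interaction -3.69, adjusted p = 3.92e-07), and PAX6 had a KO interaction of -4.62 (adjusted p = 0.000416). On the TPM scale fewer of these differences passed, with 9 of 26 proneural, 3 of 24 Notch and none of 22 microtubule genes more negative in KO. The count of no called microtubule gene comes from limma, beside 10 by edgeR.

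**Figure D5:**
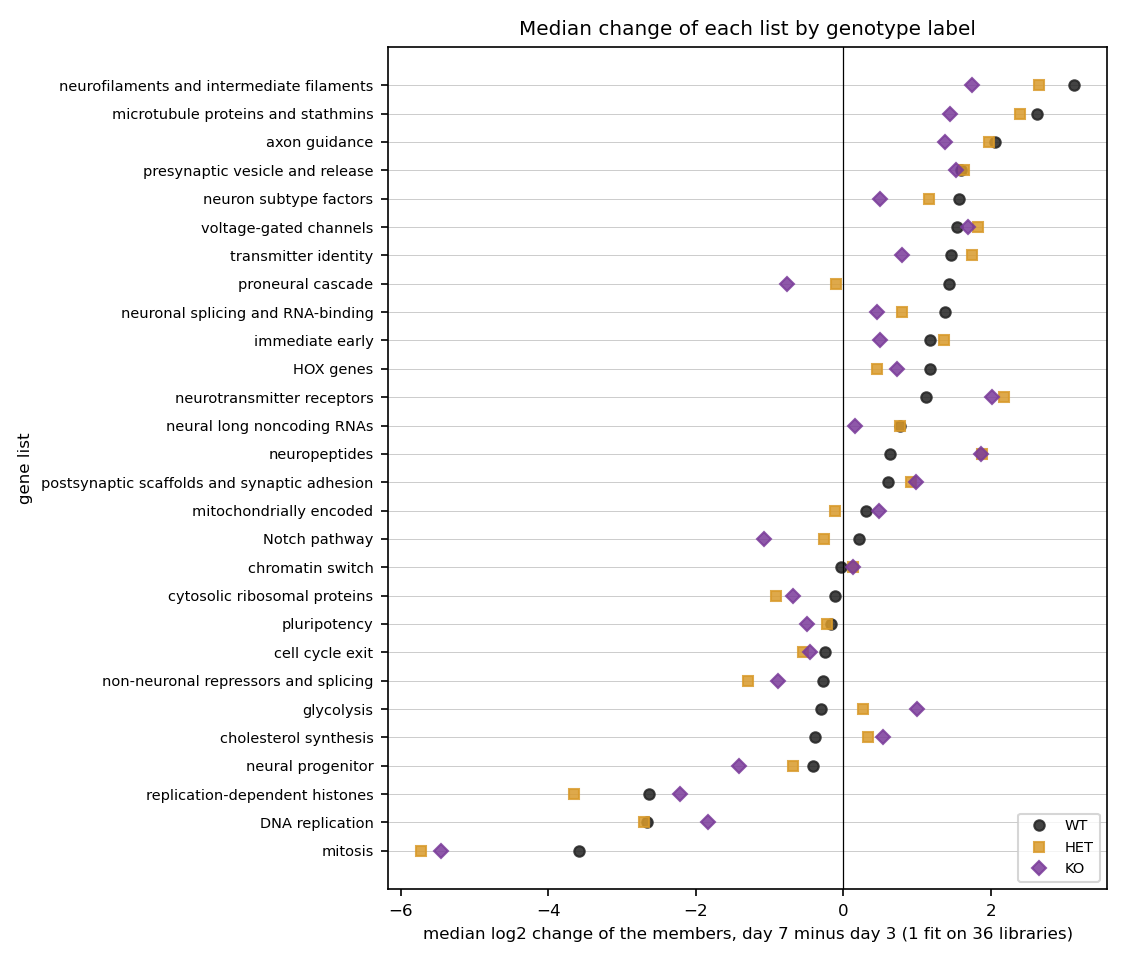
Median log2 change from day 3 to day 7 of the members of 28 gene lists in libraries labelled WT, HET and KO (1 fit of 36 libraries). The proneural list stands at 1.43, -0.10 and -0.76 and the mitosis list at -3.59, -5.73 and -5.45; lists such as presynaptic genes have nearly equal medians.

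Cell cycle lists differed in another way. Replication genes fell less in KO in 19 of 37 and more in 4, and PCNA and MCM2 had KO interactions of 1.44 and 0.88 (edgeR adjusted p = 0.000947 and 0.0104). Their summed level at day 3 was already lower in KO (956 to 1977 CPM) than in WT (3163 to 3791 CPM). On the TPM scale limma called 2 of 37 more positive and none more negative, and called neither PCNA nor MCM2. Mitosis genes fell more in KO in 25 of 40 and in HET in 26. Without WT day 7 replicate 1, the library with the most mitotic RNA at day 7, these counts became 19 and 16, and on the TPM scale limma called none, with median differences of -0.09 and -0.62. MKI67 had a KO interaction of -1.78 (adjusted p = 0.0198), which was not called without WT day 7 replicate 1 (-1.31) or without KO day 3 replicate 2 (-1.44). CDK1 had -2.77 (adjusted p = 0.00352), against 0.06 on the TPM scale.

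A minority of metabolic genes changed differently in KO. Glycolysis genes were more positive in 9 of 24 and more negative in 1, and cholesterol genes in 10 of 23 and 1, by edgeR. On the TPM scale limma called 2 glycolysis genes and no cholesterol gene more positive. SLC2A1 had a KO interaction of 2.52 (edgeR adjusted p = 5.78e-05). LIN28A, which fell by 2.69 in WT, had a KO interaction of 2.56 (adjusted p = 5.09e-06). Neither SLC2A1 nor LIN28A was called on the TPM scale.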

How the data were processed

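RNA libraries of 36 H9 samples, made after removal of ribosomal RNA, were read as pairs of 151 bp, per the labels' protocols. The submitters' processing notes name cutadapt 4.8, FastQC 0.11.8, MultiQC 1.20, STAR 2.7.8a, RSEM 1.3.3 and GRCh38. The annotation release and the use of strand are not given in the sources used here. The authors deposited expected counts per gene, whole in every cell, and TPM. Of 62710 gene identifiers 58274 (92.9%) matched GENCODE 29, which gave positions and spans. The 4 reporter sequences were left out of the tests.

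Rounded expected counts of the 12 WT libraries were filtered by filterByExpr, scaled by TMM and tested with edgeR 4.0.16 (R 4.3.3; quasi-likelihood F test, Benjamini-Hochberg, threshold 0.05). Genotype interactions used all 36 libraries. Alternatives used DESeq2 1.42.0, limma 3.58.1 on log2(TPM + 1) or log2(TPM + 0.1), which understates changes of low genes, and other filters and scalings. Depths of 24.0 to 56.7 M counts (M, mega) limit the precision of genes under 1 CPM. The tests were run on simulated counts with 200 genes changed, far fewer than were called in the data. The WT edgeR test recovered 51.0% of changes of 1 log2 unit and 96.0% of 2, with 2.6% of calls false. For the KO interaction these were 23.0%, 75.0% and 3.9%. False calls were 6.2% with the replicate block, 7.7% by limma on log values and 24.4% by DESeq2.

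The contrast and the gene lists were chosen with earlier results of these data known. Genes named are RAI1, the 10 largest rises and falls with a mean of at least 5 CPM and no overlap between groups, up to 3 further members of each list by size of change, and preset key members; not all are printed. Members named because they alone went against a list, and the genes whose promoters are printed, were chosen after their values were seen. A fold against 1 to 3 counts is a ratio with a 95% counting interval. Intervals cover counting error only. Some genes are not reported here.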

Additional observations from a re-analysis of the deposited data

Results flagged for a closer look

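Within groups of 4, a library was marked when its gap to the nearest other library exceeded Dixon's 95% critical share of the group's range. Of 334 groups of values 19 were marked, where chance gives about 1 in 20, or 16.7. Of these, 7 were WT day 7 replicate 1 and 4 were WT day 3 replicate 4. WT day 7 replicate 1 was high for E2F2 (gap 0.933 of the range; 1.77 against 0.31 to 0.408 CPM), CDK1 (0.832; 28 CPM), TYMS (0.928; 18 CPM), SOX2 (0.900; 20.5 CPM) and KCNH7 (0.859; 76.7 CPM). It was low for SYT4 (0.903; 192 CPM) and RMST (0.858; 14.5 CPM). WT day 3 replicate 4 was high for POU5F1 (0.898; 30.5 against 2.49 to 5.36 CPM), DLL1 (0.870; 303 CPM), HES1 (0.836; 13.8 CPM) and TH (1.000; 0.104 CPM, the others at 0).

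WT day 3 replicate 1 was high for POU4F1 (0.875; 7.83 CPM) and low for LDHA (0.973; 241 CPM) and MAPT (0.918; 4.49 CPM). WT day 3 replicate 3 was high for CACNA1B (0.875; 32.9 CPM), TNFRSF18 (0.925; 8.31 CPM) and CNTNAP4 (1.000; 0.0241 CPM, 1 count). WT day 7 replicate 4 was high for E2F1 (0.869; 21.4 CPM) and low for GFAP (0.955; 0.14 CPM).

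The change from day 3 to day 7 differed from WT in 4588 genes in libraries labelled KO and in 1174 in those labelled HET, by edgeR's interaction test. Among genes named here, the KO interaction on the log2 scale was -5.79 for NEUROG1, -7.21 for NEUROD1, -3.88 for NEUROD4, -3.81 for NHLH1, -3.69 for GRIN2D, -4.42 for DCC, -4.62 for PAX6, -1.78 for MKI67 and -2.77 for CDK1. It was 2.56 for LIN28A, 0.88 for MCM2, 1.44 for PCNA and 2.52 for SLC2A1. The HET interaction was -3.34 for NEUROG1 and -3.61 for NEUROD1.

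Outside the gene table, counts of a tdtomato reporter sequence were above the limit that 0 counts allow (0.063 to 0.084 CPM at day 7). They stood at 132.3 to 169.8 CPM in WT day 0, 13.3 to 35.7 CPM in WT day 3 and 26.0 to 71.3 CPM in WT day 7 libraries.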

How the results depend on the processing

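The WT count of 10284 ranged from 9211 to 10812 when 1 library was left out. It fell to 6734 by limma on log2(TPM + 1) and to 3223 when a change beyond 1 log2 unit was tested, and stayed within 1.5 times under the other settings run. The KO interaction count was 942 and the HET count 109 by limma on TPM, where 65.1% of called HET genes were higher against 43.4% in edgeR. Among HET day 7 libraries the small structural RNAs took from 47.89% to 86.47% of TPM. The HET count was 389 with 16 libraries only and ranged from 729 to 2353 with 1 library left out. CDK1, KO minus WT, turned from -2.77 to 0.06 on the log2(TPM + 1) scale. The causes were not tested.

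Of 165 genes examined 141 were called and 111 kept call and direction under every setting. Leaving out 1 library ended the calls of 5, CHAT, SQLE, RPS6, MT-CO1 and MIAT. Same-numbered WT libraries did not deviate together (r = -0.044, 0.190, -0.042 and -0.293), no library correlating best with its own number. Across genotypes every such pair was over 0.1 at day 3. WT with HET gave 0.169, 0.730, 0.166 and 0.767, and WT with KO 0.140, 0.547, 0.151 and 0.549. Only WT day 3 replicates 2 and 4 correlated best with their own number in both HET and KO. At day 7 not every pair was over 0.1. WT with HET gave 0.202, 0.407, -0.062 and 0.129 there, and WT with KO 0.224, -0.035, 0.153 and -0.037. Between days, 3 of 4 pairs were over 0.1 in KO and 3 of 4 in HET. With the replicate number as a block 9597 genes were called in WT, 5041 for KO and 1362 for HET. Depth limits genes under 1 CPM, which a few counts decide.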
